A study of Mus musculus with 4 samples.

Results

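The receptors described here are 10 genes of the 32285 in the deposited count matrices, chosen by name as receptors through which descending serotonin and noradrenaline act in the spinal cord. They are 6 serotonin receptor genes (Htr2c, Htr2a, Htr1a, Htr3a, Htr7 and Htr4) and 4 adrenergic receptor genes (Adra1a, Adra1b, Adra2a and Adra2c). No measured value is part of the rule. The study counted RNA in single nuclei of mouse spinal dorsal horn, the region that receives sensory and pain input, to ask what loss of Gpr37l1 does with and without nerve injury. Gpr37l1 encodes a G protein-coupled receptor of astrocytes. There were 4 libraries, 1 for each group. The first group was Gpr37l1-/- mice (KO) taken 1 day after spared nerve injury (SNI), a surgical model of neuropathic pain in which part of the sciatic nerve is cut. The other groups were wild-type Gpr37l1+/+ mice (WT) 1 day after SNI, uninjured (naive) Gpr37l1-/- mice, and naive Gpr37l1+/+ mice. The labels used here give no age, sex or strain, nor the number of mice in a library. Groups follow the sample titles and library names. The treatment tag goes against the title for 2 libraries, tagging the KO naive library as SNI and the WT SNI library as naive. The molecule label also differs, being total RNA for KO SNI and polyA RNA for the other 3 libraries.

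Because each group is 1 library, no test between groups was possible, and every ratio below describes these libraries. The 95% intervals cover counting error only and not the variation between animals. Levels are in CPM, the UMIs (unique molecular identifiers, counted RNA molecules) of a gene divided by all UMIs of the same cell class in the same library, mitochondrial genes left out, scaled to a fixed total as is usual for this unit. CPM is not scaled to gene length, so levels are compared within a gene and not between genes. Where 4 values follow each other they stand for KO SNI, WT SNI, KO naive and WT naive, in that order.

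Serotonin reaches the dorsal horn from the raphe nuclei of the brainstem, and noradrenaline from the locus coeruleus and neighbouring cell groups. Both are released over a wide area and can lower or raise the transfer of pain signals, depending on which receptor a cell carries. Htr2c, Htr2a, Adra1a and Adra1b encode receptors that couple to Gq, which raises intracellular calcium and is generally excitatory. Htr4 and Htr7 couple to Gs and raise cyclic AMP. Htr1a, Adra2a and Adra2c couple to Gi, which lowers cyclic AMP, opens potassium channels and reduces transmitter release. Htr3a encodes a subunit of the only serotonin receptor that is itself an ion channel. Drugs acting at Adra2a, such as clonidine, give spinal analgesia.

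UMI totals were 44079044, 50605908, 69572640 and 35197290, over 28019, 27233, 37552 and 19942 barcodes, and the median barcode had 1284, 1484, 1509 and 1438.5 UMIs. Pairs of libraries shared 162 to 293 cell barcodes, at most 1.05% of the smaller library. After filters, 103124 nuclei remained, of which 21184 were excitatory-like neurons, 11984 inhibitory-like neurons and 19038 neurons whose transmitter markers did not settle on either side. Of these last neurons, 15263 formed cluster 0, led by Rnf207. The named glia were 5361 astrocyte-like, 19415 oligodendrocyte-like, 2008 oligodendrocyte precursor-like and 3603 microglia-like nuclei, and 19422 nuclei stayed unnamed. The unnamed nuclei were uneven over the libraries, at 3250, 6952, 8529 and 691. Unnamed cluster 1, with haemoglobin genes among its leading genes, held 276, 5042, 4912 and 150 of them. The contrasts below thus compare libraries that lost unlike numbers of nuclei in this way. Astrocyte-like nuclei held Gpr37l1 itself at 1.88, 144, 0 and 147 CPM, so the knockout labels fit the counts. The glial classes also held UMIs of neuronal marker genes, and these are given beside each glial result. Free RNA in empty droplets was not measured, since the matrices hold called barcodes alone.

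**Figure D1:**
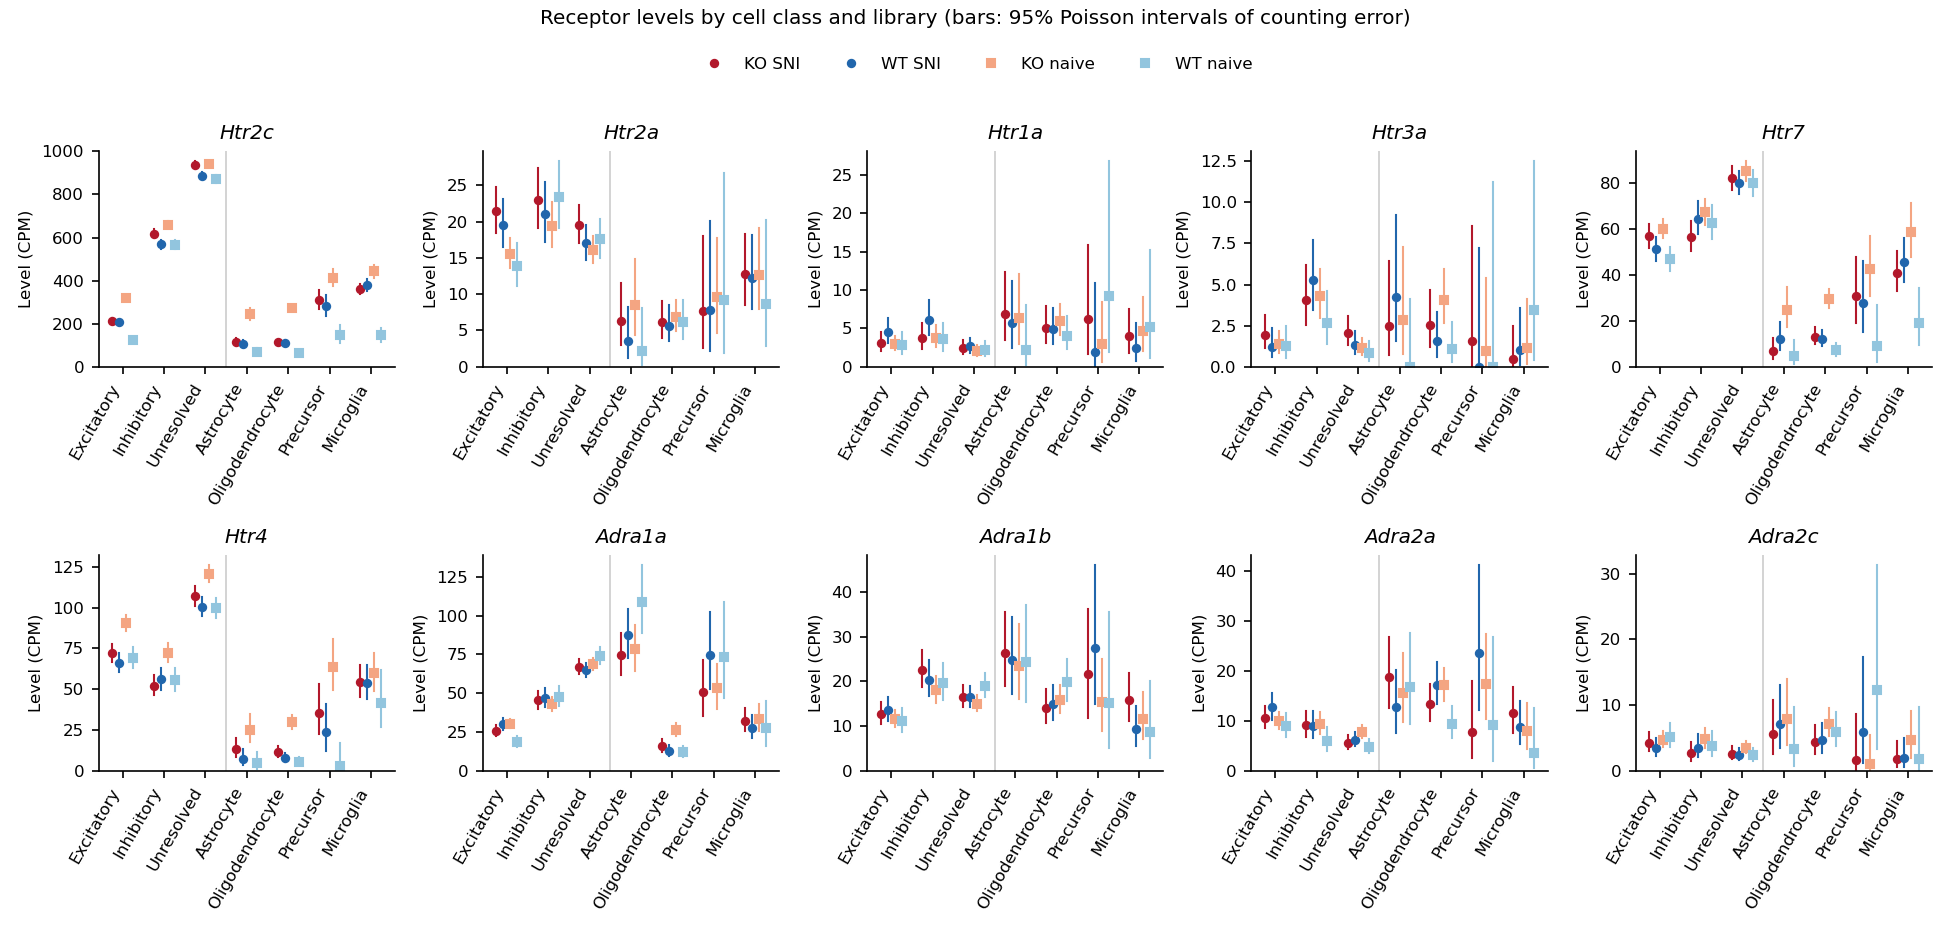
Level of each of the 10 receptor genes in CPM by cell class, each gene on its own axis; each point is 1 library (KO SNI, WT SNI, KO naive, WT naive) and the bar is its exact Poisson 95% interval. Htr2c lies between 872 and 939.9 CPM in unresolved neurons, above every other class shown, while Adra1a lies between 74.4 and 109 CPM in astrocyte-like nuclei, against 18.7 to 30.1 CPM in excitatory-like neurons.

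The Gq-coupled serotonin receptor Htr2c was counted most often, with 92938 UMIs in kept nuclei. Its gene spans 234.76 kb at chrX:146962513-147197277 on the plus strand of GRCm38, and 74.6% of its UMIs lay in neurons, which held 62.3% of all UMIs. In neurons of unresolved transmitter it stood at 938, 888, 939.9 and 872 CPM. In inhibitory-like neurons it stood at 618, 569, 659.6 and 566 CPM, and in excitatory-like neurons at 214, 208, 319 and 123 CPM. The ranges over the 4 libraries did not overlap between these 3 neuron classes. The KO naive library was the highest of the 4 in each of them. Per nucleus, after thinning to 1000 UMIs, 51.5%, 48.6%, 50.7% and 48.0% of unresolved neurons had an Htr2c UMI. The same share was 8.23%, 8.19%, 20.9% and 5.12% in oligodendrocyte-like nuclei, a class that is not known for this receptor. Unthinned, the shares were 67.1%, 69.2%, 74.7% and 69.9% of unresolved neurons, with a median of 1987.5 to 2527 UMIs a nucleus. They were 8.04%, 9.71%, 23.5% and 5.19% of oligodendrocyte-like nuclei, with a median of 729 to 944 UMIs.

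Among the 19 neuron clusters, Htr2c was highest in inhibitory-like cluster 19, led by Adamts5 and Eya2, at 1050, 846.5, 1053 and 1009 CPM. Unresolved cluster 0 followed at 995, 928, 984 and 904 CPM, and the 2 ranges overlapped. Cluster 0 held 42.9% of all Htr2c UMIs. The median neuron cluster stood at 266 CPM and the lowest, excitatory-like cluster 32, at 166 CPM. In 8 of 19 neuron clusters even the lowest library lay above 484 CPM, the highest level of any named glial cluster in any library. Htr2a, the other Gq-coupled serotonin receptor and a target of classical psychedelics, was far less often counted, with 2816 UMIs in all. It too was highest in cluster 19, at 66.4, 56.2, 50.6 and 48.8 CPM, 3.38 times the median neuron cluster. Excitatory-like cluster 24 held 41.9, 47.4, 49.8 and 44.4 CPM, and inhibitory-like cluster 25, led by Plch1, held 48.4, 40.8, 31.4 and 78.1 CPM. The ranges of these 3 clusters overlapped. Htr2a (chr14:74640840-74709494, plus strand) averaged between 16.6 and 21.0 CPM over all neurons.

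The Gs-coupled receptor Htr4 (chr18:62324204-62496577, plus strand; 12807 UMIs) had the most uneven distribution of the well-counted members. It was highest in excitatory-like cluster 6, led by Lmo3, Unc5cl, Myo5b and Ptger3, at 211, 193, 231 and 225 CPM, which was 7.31 times the median neuron cluster at 29.4 CPM. Inhibitory-like cluster 13, led by Hpse2 and Rorb, came next among neurons at 135, 120.3, 160.1 and 158 CPM. The lowest library of cluster 6 lay above the highest of cluster 13. At the other end, excitatory-like cluster 10 averaged 17.1 CPM and inhibitory-like cluster 27 averaged 10.9 CPM. Clusters with a high and a low level thus occurred on both the excitatory and the inhibitory side. Over all neurons Htr4 stood at 83.4, 81.2, 100.5 and 80.8 CPM.

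Htr7, the second Gs-coupled receptor (chr19:35958734-36057507, minus strand; 10096 UMIs), varied less between neuron clusters. It was highest in inhibitory-like cluster 25 at 118, 151, 124 and 93.2 CPM and in excitatory-like cluster 10, led by Maf and Bmp6, at 95.3, 112, 117 and 146 CPM. These ranges overlapped. Cluster 10 was thus near the top for Htr7 and near the bottom for Htr4. The lowest neuron cluster for Htr7, excitatory-like cluster 8, averaged 20.9 CPM, and all neurons stood at 67.8, 68.1, 72.7 and 65.9 CPM.

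The ion channel subunit gene Htr3a and the Gi-coupled receptor Htr1a were near the lower end of what these libraries can show. Htr3a (chr9:48899213-48911099, minus strand) had 372 UMIs in all kept nuclei. Inhibitory-like cluster 19 held 39 of them, at 18.3, 15.5, 16.9 and 11.7 CPM, which was 11.4 times the median neuron cluster. Inhibitory-like cluster 17, led by Pde1a and Esr1, held 29 UMIs, at 12.8, 13.6, 7.85 and 4.83 CPM. The ranges of clusters 19 and 17 overlapped. Htr1a (chr13:105443639-105448122, plus strand), a gene of 1 exon, had 625 UMIs. Its highest neuron cluster was cluster 13, at 8.30, 7.35, 4.28 and 7.62 CPM on 34 UMIs. Over all neurons Htr1a stood at 2.92, 3.91, 2.71 and 2.69 CPM, against 6.88, 5.67, 6.39 and 2.22 CPM in astrocyte-like nuclei, where the ranges overlapped.

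The adrenergic Gq-coupled receptors, unlike Htr2c, Htr2a, Htr7 and Htr4, stood higher in astrocyte-like nuclei than in all neurons. Adra1a (chr14:66635251-66771168, plus strand; 8149 UMIs) averaged 74.4, 87.2, 78.1 and 109 CPM over astrocyte-like nuclei, against 48.2, 50.6, 50.1 and 51.2 CPM in all neurons. The ranges did not overlap, and the astrocyte level was 154%, 172%, 156% and 213% of the neuron level. The 6 neuronal marker genes, summed, stood in the same astrocyte-like nuclei at 15.1%, 12.6%, 27.2% and 8.25% of their neuron level. The share of astrocyte-like nuclei with an Adra1a UMI after thinning to 1000 UMIs was 7.03%, 9.40%, 6.47% and 9.81%, against 0.844%, 1.29%, 1.61% and 0.802% of oligodendrocyte-like nuclei. Unthinned, the shares were 6.05%, 8.52%, 7.67% and 8.63% of astrocyte-like nuclei and 1.28%, 1.22%, 2.60% and 1.01% of oligodendrocyte-like nuclei, with median depths of 805 to 1116 and 729 to 944 UMIs. Oligodendrocyte precursor-like nuclei held 50.9, 74.7, 53.0 and 73.3 CPM, 105% to 148% of the neuron level. Ependymal-like nuclei held 74.2, 86.3, 78.9 and 90.5 CPM, 154% to 177% of the neuron level, on 42 UMIs.

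Within neurons, Adra1a was highest in inhibitory-like cluster 15, led by Gucy2d, at 106, 115, 87.8 and 116 CPM. Cluster 25 held 125, 86.4, 74.6 and 116 CPM. Neither cluster was separated from the astrocyte-like cluster, since the ranges overlapped. The lowest neuron cluster, inhibitory-like cluster 27, averaged 8.23 CPM, so neurons of 1 transmitter class stood at both ends. Adra1b (chr11:43774606-43901210, minus strand; 2881 UMIs) was highest in inhibitory-like cluster 13, at 55.6, 34.9, 32.3 and 47.9 CPM, and in excitatory-like cluster 10, at 35.3, 29.9, 30.3 and 36.1 CPM. Its level was 26.3, 24.8, 23.4 and 24.5 CPM over astrocyte-like nuclei, against 16.5, 16.4, 14.4 and 16.8 CPM in all neurons. These ranges did not overlap either.

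The Gi-coupled adrenergic receptors were counted less. Adra2a (chr19:54044151-54048982, plus strand; 1703 UMIs) averaged 18.8, 12.8, 15.6 and 16.7 CPM over astrocyte-like nuclei, against 8.01, 8.69, 8.81 and 6.30 CPM in all neurons. With at least 500 genes and 1000 UMIs a nucleus, or with thinning to 1000 UMIs, the lowest library was at 86.3% or 70.5% of its neuron level, so the difference no longer held in each library. Among neuron clusters it was highest in excitatory-like cluster 6, the cluster with the most Htr4, at 20.1, 21.8, 15.5 and 16.2 CPM, 2.22 times the median neuron cluster. Oligodendrocyte-like nuclei held 13.3, 17.1, 17.1 and 9.31 CPM, above the neurons in each library. Their cluster 5 was the highest named cluster for Adra2a, at 28.0, 30.6 and 20.8 CPM in KO SNI, WT SNI and KO naive, with too few WT naive nuclei for a value. Adra2c (chr5:35278319-35281763, plus strand), a gene of 1 exon with 703 UMIs, averaged at most 7.68 CPM in any neuron cluster, in inhibitory-like cluster 27 on 12 UMIs. The astrocyte-like nuclei held 5.63, 7.09, 7.81 and 3.34 CPM of it, against 3.16, 2.92, 4.17 and 3.51 CPM in all neurons, with overlapping ranges.

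**Figure D2:**
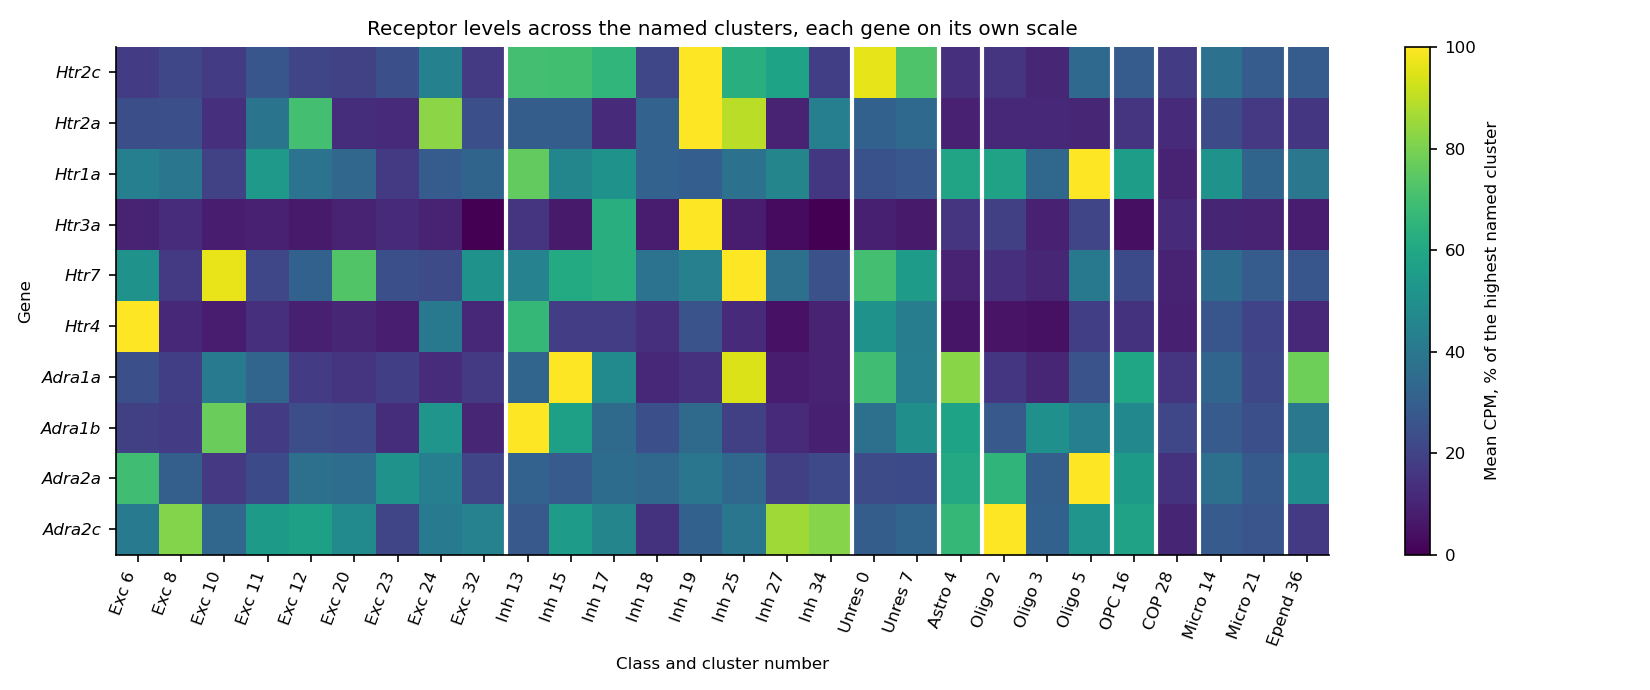
Level of each receptor gene in the 19 neuron clusters and the named glial clusters, as mean CPM over libraries in percent of the gene's highest named cluster. Htr4 peaks in cluster 6, Htr2c in clusters 19 and 0, Htr3a in cluster 19 and Adra1b in cluster 13.

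All 10 members had a neuron cluster at least 2-fold above their median neuron cluster. The share of all genes with such a cluster is not given here, so the count does not set these members apart. For Htr1a and Adra2c that cluster rests on 34 and 12 UMIs. The receptor genes had been left out of the genes used to form clusters. The members did not share 1 peak. Among neuron clusters, cluster 19 was highest for Htr2c, Htr2a and Htr3a, cluster 25 for Htr7, and cluster 6 for Htr4 and Adra2a. Cluster 15 was highest for Adra1a, cluster 13 for Htr1a and Adra1b and cluster 27 for Adra2c. For Htr1a, Adra2a and Adra2c an oligodendrocyte-like cluster averaged more, with overlapping ranges. Cluster 5 averaged 9.08 CPM for Htr1a, against 6.89 CPM in cluster 13, and 26.5 CPM for Adra2a, against 18.4 CPM in cluster 6. Cluster 2 averaged 8.96 CPM for Adra2c, against 7.68 CPM in cluster 27. The Htr1a and Adra2c peaks also overlapped the next neuron cluster. Across the 40 clusters of at least 50 nuclei, Pearson's r of log2(CPM + 1) was 0.60 between Htr2c and Htr7, 0.55 between Htr2c and Htr4, 0.51 between Htr7 and Htr4, and 0.51 between Adra1a and Adra1b. These clusters share libraries and differ in depth, so the values are descriptions.

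Among 16107 genes with at least 200 UMIs, the genes whose pattern over the 40 clusters was most like each member were ranked by the same r. For Htr2c they were Cdh7, Fstl5 and Gm28905, at 0.86, 0.82 and 0.82. Fras1, Ankrd55 and Glra1 came nearest to Htr7, at 0.83, 0.82 and 0.82, Glra1 encoding a subunit of the glycine receptor. For Htr4 they were Col26a1, Tcerg1l and Spink10, at 0.84, 0.83 and 0.80. The nearest gene reached 0.70 for Htr2a (Cntn5), 0.73 for Htr1a (Slc25a14), 0.65 for Htr3a (Eef1e1), 0.67 for Adra1a (Angpt1), 0.67 for Adra1b (Pcdh11x), 0.79 for Adra2a (Spag7) and 0.68 for Adra2c (Lyar). Members with few UMIs have noisy cluster levels, which limits r for them.

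The measured level also moved with the depth of the nucleus, and in opposite directions for different members. Neurons were split by UMI total into 500 to under 1000, 1000 to under 2000, 2000 to under 4000, and 4000 or more, with 4203, 26613, 17539 and 3851 nuclei. Htr2c stood at 311, 449.7, 705 and 854 CPM along these bins, and Adra1a at 31.8, 36.9, 49.7 and 79.2 CPM. Htr4 and Htr7 were also higher in deeper nuclei. Adra2a stood at 12.8, 10.9, 6.79 and 5.02 CPM along the same bins, and Adra2c at 5.67, 4.81, 3.01 and 1.92 CPM. Adra1b changed little, at 15.3, 16.1, 16.1 and 14.6 CPM. The members lower in deeper nuclei were the compact genes Htr1a, Htr3a, Adra2a and Adra2c, which span 4.48, 11.89, 4.83 and 3.44 kb, and, to a lesser degree, Htr2a, which spans 68.66 kb. Those higher in deeper nuclei span 98.77 kb (Htr7), 135.92 kb (Adra1a), 172.37 kb (Htr4) and 234.76 kb (Htr2c). Adra1b spans 126.61 kb, more than Htr7, and was not higher in deeper nuclei. Cell types differ in depth, so cell type and depth cannot be told apart in these bins.

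**Figure D3:**
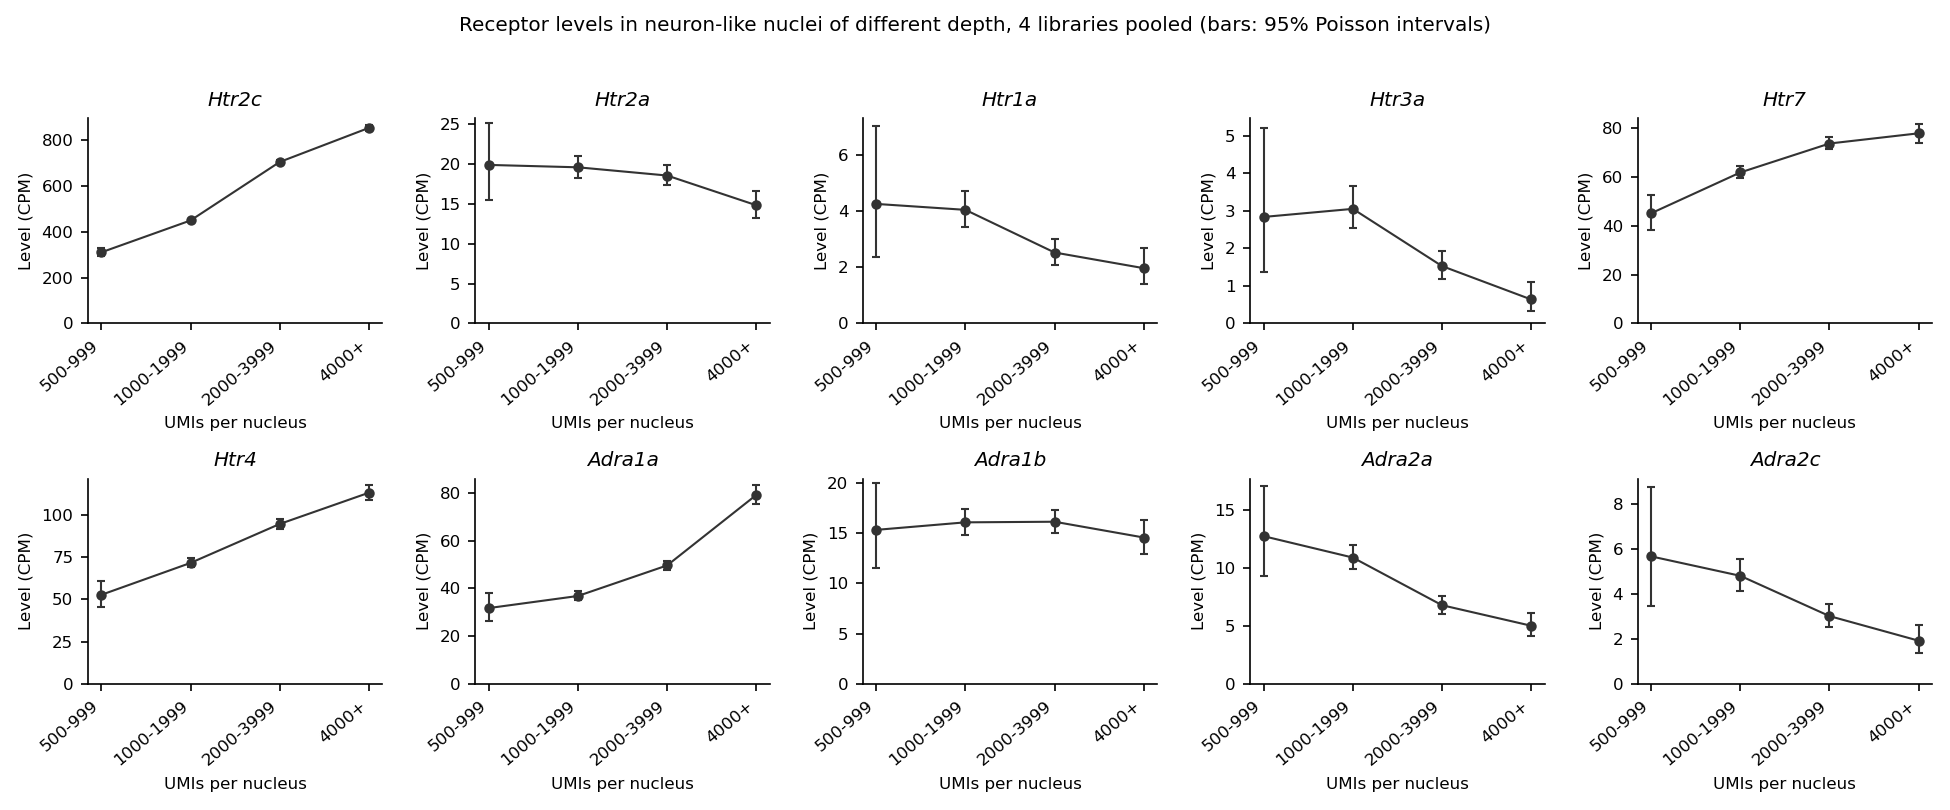
Level of each receptor gene in neurons in CPM against the UMI total of the nucleus, in 4 bins over the 4 libraries pooled, with exact Poisson 95% intervals. Htr2c, Htr4, Htr7 and Adra1a are highest in the deepest bin, whereas Adra2a, Adra2c, Htr1a and Htr3a are lowest there.

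In the larger glial classes, Htr2c stood near or above the percentage of its neuron level that the neuronal marker genes had. In oligodendrocyte-like nuclei Htr2c and Htr7 lay above the markers in each library, and Htr2a lay further above them. In oligodendrocyte-like nuclei the summed 6 marker genes (Rbfox3, Snap25, Syt1, Celf4, Snhg11 and Meg3) stood at 15.9%, 13.9%, 30.3% and 9.21% of their neuron level. Htr2c stood there at 18.4%, 18.0%, 40.6% and 11.1%, and Htr7 at 19.2%, 17.6%, 40.4% and 10.9%. The order of the libraries was the same as for the markers, with KO naive the highest and WT naive the lowest. Htr2a stood there at 29.2%, 30.2%, 41.2% and 34.6%, with the libraries in another order. In astrocyte-like nuclei Htr2c stood at 18.2%, 17.1%, 36.4% and 11.8%, above the markers at 15.1%, 12.6%, 27.2% and 8.25%. In microglia-like nuclei the markers stood at 56.6%, 61.3%, 66.4% and 24.7% of their neuron level, and Htr2c at 58.1%, 61.3%, 66.1% and 25.2%. In oligodendrocyte precursor-like nuclei the markers stood at 47.7%, 36.1%, 59.9% and 24.3%, and Htr2c at 49.6%, 45.5%, 61.7% and 25.4%. In smaller classes Htr2c was at times further off. It stood at 7.86% beside 23.9% for the markers in WT naive ependymal-like nuclei. In WT SNI committed oligodendrocyte precursor-like nuclei it stood at 35.4% beside 23.3%. In WT naive, Htr4 stood at 51.4% of its neuron level in microglia-like nuclei, apart from the markers. In WT naive oligodendrocyte precursor-like nuclei it stood at 3.78%. That is 3.05 CPM, fewer than the 3 UMIs that give 9.16 CPM there, so it is not set against the markers. All 6 markers had UMIs in each of these classes. A glial level of Htr2c was not read as expression by glia, and its source was not tested. Adra1a, Adra1b and Adra2a in astrocyte-like nuclei stood above their neuron level, and the neuronal markers did not. For Adra2a this did not hold in each library with the stricter filter or thinning. A level above neurons was not particular to astrocyte-like nuclei. Adra1a stood at 154% to 177% of its neuron level in ependymal-like nuclei and at 105% to 148% in oligodendrocyte precursor-like nuclei. In oligodendrocyte-like nuclei Adra2a stood at 148% to 197%, Htr1a at 124% to 218% and Adra2c at 137% to 172%. Htr1a and Adra2c had 92 and 103 UMIs there.

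**Figure D4:**
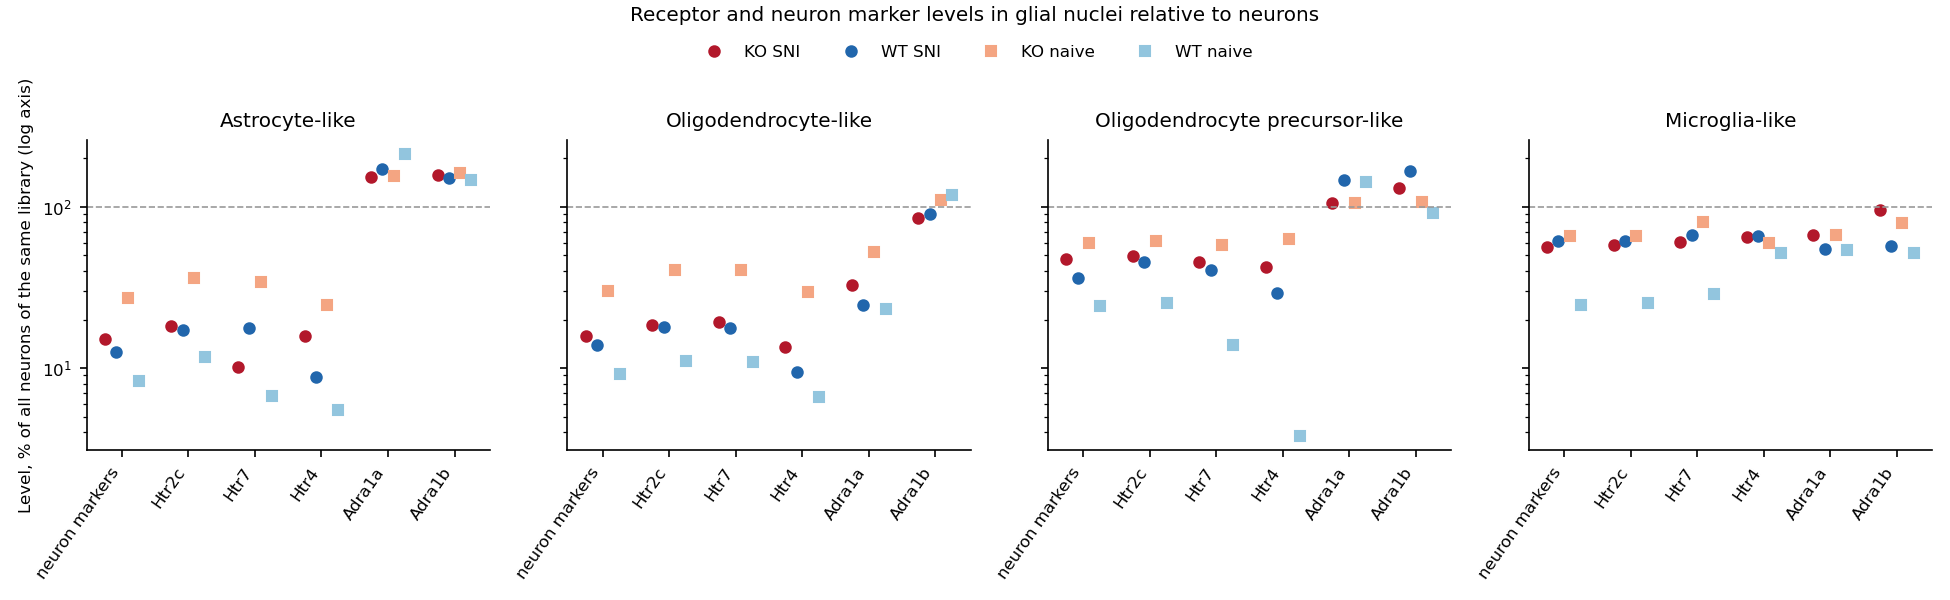
Level in astrocyte-like, oligodendrocyte-like, oligodendrocyte precursor-like and microglia-like nuclei as a percentage of the level in all neurons of the same library (log axis), for 5 of the receptor genes and the summed neuronal markers; each point is 1 library and the broken line marks the neuron level. Htr2c lies near or above the markers in each class, while Adra1a in astrocyte-like nuclei lies at 154% to 213%.

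The injury question is whether 1 day of SNI was accompanied by other receptor levels, in KO and in WT. A member was counted as past the fold where its CPM ratio was at least 1.5-fold either way with at least 30 UMIs over the pair of libraries. Over all neurons of KO mice, 0 of the 10 members were past the fold between SNI and naive, where 17.6% of all genes tested were. Over all neurons of WT mice, 1 of 10 was, Htr3a, where 7.33% of all genes were. Htr3a had 2.10 CPM in WT SNI neurons and 1.35 CPM in WT naive neurons, on 51 and 28 UMIs. Its log2 ratio of 0.64 had an interval from -0.05 to 1.36, which includes no change. The median log2 ratio of the members was -0.08 in KO mice and 0.06 in WT mice, against 0.07 and 0.01 over all genes tested in KO mice and WT mice. The KO and WT injury contrasts use different libraries, but each shares a library with both genotype contrasts.

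The genotype question is whether KO and WT mice differed in the same state. Between KO SNI and WT SNI neurons 0 of 10 members were past the fold, where 6.87% of all genes were, and between KO naive and WT naive neurons 0 of 10 were, where 22.4% of all genes were. The median log2 ratio of the members was 0.01 after SNI and 0.18 in naive mice, against -0.01 and -0.07 over all genes tested. Htr2c gave log2 ratios of 0.01 (KO SNI to WT SNI) and 0.21 (KO naive to WT naive), and Adra1a gave -0.07 and -0.03. With each library clustered on its own, the naive ratios became -0.10 for Htr2c and -0.41 for Adra1a. That clustering left 0 neurons of unresolved transmitter and 19172 unnamed nuclei in KO naive, against 1245 and 338 in WT naive, so the neurons compared are different populations. The counting interval of the naive Htr2c ratio, 0.18 to 0.25, did not include 0. Htr4 had a log2 ratio of 0.32 (0.23 to 0.40) between KO naive and WT naive neurons and -0.27 (-0.35 to -0.19) between KO SNI and KO naive neurons. With each library clustered on its own these became 0.53 and -0.40, still within the fold. Its KO naive level of 100.5 CPM thus stood above the other 3 libraries, which lay between 80.8 and 83.4 CPM. Adra2a had a log2 ratio of 0.48 (0.19 to 0.78) between KO naive and WT naive neurons and 0.46 between WT SNI and WT naive neurons. WT naive was the low library there, at 6.30 CPM against 8.01 to 8.81 CPM in the other 3.

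**Figure D5:**
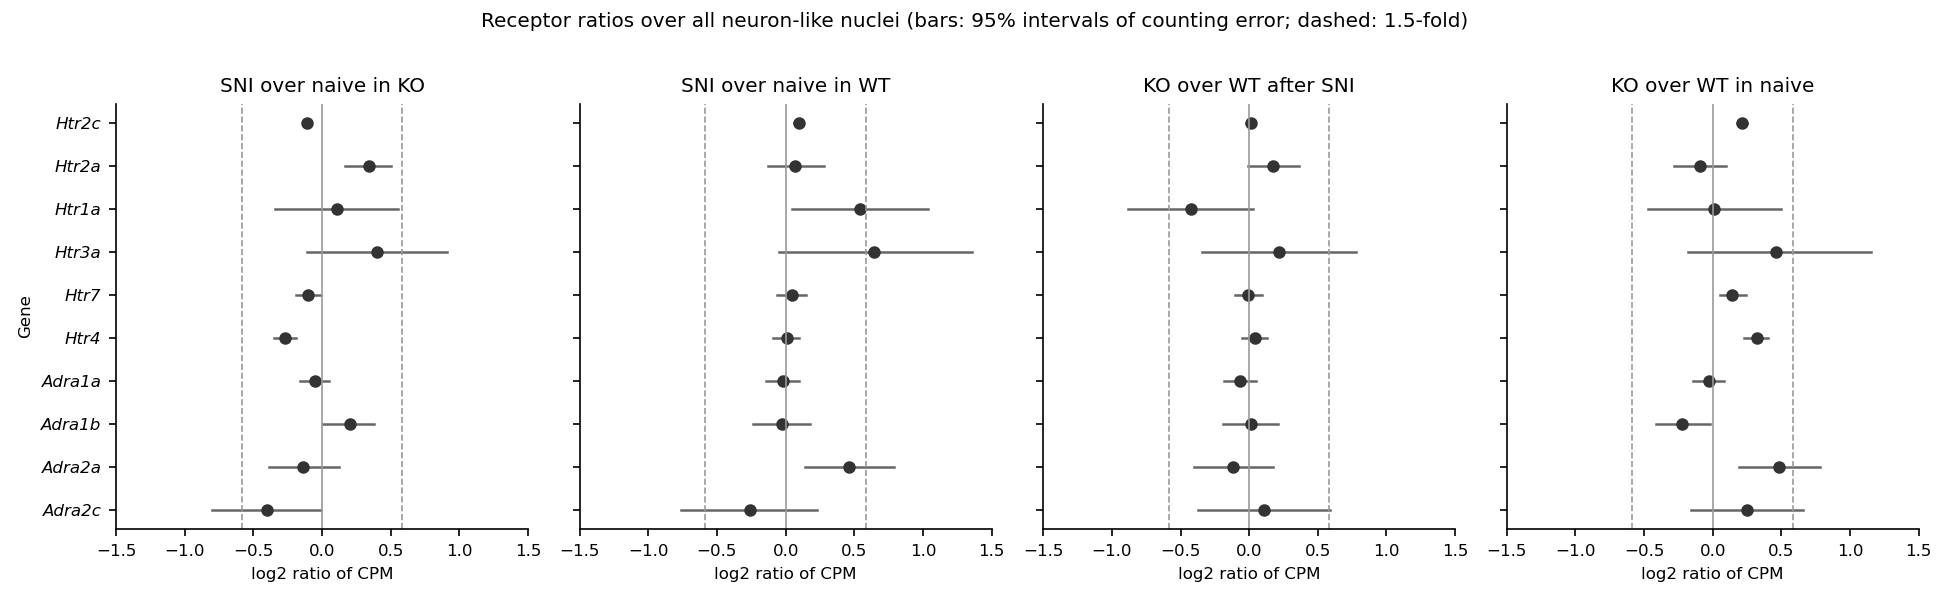
Log2 ratio of CPM over all neurons for each receptor gene in the 4 contrasts (SNI over naive in KO, SNI over naive in WT, KO over WT after SNI, KO over WT in naive), with exact conditional binomial 95% intervals for counting error; broken lines mark 1.5-fold. Of the 40 ratios, Htr3a in WT injury alone lies past a line.

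Within excitatory-like neurons, each ratio past the fold involved the WT naive library. There 4 of 9 members with enough UMIs were past the fold between WT SNI and WT naive, where 8.08% of all genes were, and 2 of 9 between KO naive and WT naive, where 20.9% of all genes were. Between KO SNI and KO naive it was 0 of 10, and between KO SNI and WT SNI 0 of 9, where 15.2% and 7.05% of all genes were. Htr2c fell just short of the fold between KO SNI and KO naive, at a log2 ratio of -0.58. KO naive was the highest library for Htr2c in this class, and WT naive the lowest. Htr2c was higher in KO naive than in WT naive excitatory-like neurons at a log2 ratio of 1.38 (1.27 to 1.49), and higher in WT SNI than in WT naive at 0.76 (0.63 to 0.89). The WT injury ratio fell short of the fold with doublets kept (0.40), with nuclei thinned to 1000 UMIs (0.49) and with each library clustered on its own (0.13). The KO naive over WT naive ratio was 0.96 with doublets kept and 0.92 with each library clustered on its own. It had the same direction in 9 of 9 excitatory-like clusters, at log2 ratios between 0.16 and 2.22. These clusters all come from the same pair of libraries, so they are not replicates. Adra1a was higher in KO naive than in WT naive excitatory-like neurons at 0.69 (0.39 to 1.00), and higher in WT SNI than in WT naive at 0.68 (0.35 to 1.01). The other members past the fold for WT injury, Htr1a at 0.67 (-0.20 to 1.58) and Adra2c at -0.61 (-1.42 to 0.19), had intervals that include 0.

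In inhibitory-like neurons 1 of 10 members was past the fold between KO SNI and KO naive, where 14.8% of all genes were, and 2 of 10 between WT SNI and WT naive, where 8.27% were. It was 1 of 10 between KO SNI and WT SNI, where 7.04% were, and 2 of 10 between KO naive and WT naive, where 19.8% were. In neurons of unresolved transmitter the counts were 1 of 10, 0 of 9, 1 of 10 and 1 of 9 in the same order of contrasts, beside 16.3%, 8.45%, 6.59% and 22.1% of all genes. These ratios belonged to Htr1a, Htr3a, Adra2c and Adra2a, the less counted members. The intervals that did not include 0 were those of Adra2a for KO naive over WT naive, at 0.66 (0.01 to 1.35) in inhibitory-like neurons and 0.70 (0.21 to 1.21) in unresolved neurons. Adra2a had 77 UMIs in KO naive and 27 in WT naive inhibitory-like neurons, and 138 in KO naive and 47 in WT naive unresolved neurons.

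In absolute terms, Htr2c stood 196 CPM higher in KO naive than in WT naive excitatory-like neurons. The same difference was 176 CPM in astrocyte-like nuclei, 207 CPM in oligodendrocyte-like nuclei, 266 CPM in oligodendrocyte precursor-like nuclei and 297 CPM in microglia-like nuclei. It was 93.4 CPM in inhibitory-like neurons and 68.1 CPM in unresolved neurons, the classes with the highest Htr2c. A difference of like size was thus present in classes where neuronal markers moved the same way. Its source was not tested.

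In glia-like nuclei, the Htr2c ratios past the fold had the direction of the neuronal markers. In oligodendrocyte-like nuclei 6 of 10 members were past the fold between KO SNI and KO naive, all lower in KO SNI, where 21.9% of all genes were past it. It was 3 of 9 between WT SNI and WT naive, where 12.5% were, 0 of 9 between KO SNI and WT SNI, where 9.66% were, and 6 of 10 between KO naive and WT naive, where 29.2% were. Htr2c gave log2 ratios of -1.25 for KO injury, 0.80 for WT injury and 2.09 for KO naive over WT naive. The summed neuronal markers gave -0.98, 0.59 and 1.66 in the same comparisons. Other members did not all go with the markers, since Adra1b gave -0.43 and Htr2a -0.12 for WT injury. Oligodendrocyte-like nuclei of the KO naive library lay mostly in cluster 5, which held 5023 KO naive nuclei of 5277. Cluster 2 held 263 KO naive nuclei of 8286, so these contrasts compare different clusters.

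In astrocyte-like nuclei 3 of 6 members were past the fold between KO SNI and KO naive, where 21.3% of all genes were, and 1 of 4 between WT SNI and WT naive, where 16.6% were. Between KO SNI and WT SNI it was 1 of 5, where 12.2% were, and between KO naive and WT naive 3 of 6, where 29.8% were. Htr2c, Htr7 and Htr4 were lower in KO SNI than in KO naive at log2 ratios of -1.11, -1.85 and -0.92, beside -0.90 for the neuronal markers. At the lower clustering resolution of 0.5 the Htr2c and Htr7 ratios were -0.36 and -0.65, and with each library clustered on its own the Htr2c and Htr4 ratios were -1.93 and -2.02. They were higher in KO naive than in WT naive at 1.84, 2.48 and 2.48, beside 1.66 for the markers. Htr7 and Htr4 each stood at 24.85 CPM in KO naive and at 4.446 CPM in WT naive, the level of 4 UMIs there. Over all libraries they had 67 and 70 UMIs in this class, so their ratios rest on few counts. Adra1a and Adra1b were not past the fold in astrocyte-like nuclei in any contrast. Adra1a gave -0.07 (-0.46 to 0.32) for KO injury, -0.32 (-0.72 to 0.08) for WT injury, -0.23 (-0.60 to 0.15) for KO SNI over WT SNI and -0.48 (-0.89 to -0.07) for KO naive over WT naive. Its WT injury and naive ratios were thus opposite in direction to those of the markers, 0.61 and 1.66. The part of neuronal RNA in the serotonin receptor ratios was not tested.

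Microglia-like nuclei of the WT naive library numbered 493 of 3603. In that class 0 of 7 members were past the fold between KO SNI and KO naive, where 16.5% of all genes were, and 2 of 5 between WT SNI and WT naive, where 39.2% were. It was 1 of 7 between KO SNI and WT SNI, where 13.4% were, and 2 of 4 between KO naive and WT naive, where 41.8% were. Htr2c gave log2 ratios of 1.38 (1.05 to 1.72) for WT injury and 1.60 (1.28 to 1.95) for KO naive over WT naive, beside 1.31 and 1.37 for the neuronal markers. With each library clustered on its own the WT injury ratio was 0.29. The class held 1417, 778, 915 and 493 nuclei as reported, but 531, 354, 65 and 337 at resolution 2. With doublets kept it held 537, 365, 73 and 348. At resolution 2 a cluster with microglia markers and 581 KO naive nuclei stayed unnamed, at a median doublet score of 0.201.

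In oligodendrocyte precursor-like nuclei few members had 30 UMIs. Past the fold were 1 of 5 between KO SNI and KO naive, where 17.9% of all genes were, and 1 of 2 between WT SNI and WT naive, where 18.7% were. It was 1 of 4 between KO SNI and WT SNI, where 16.7% were, and 3 of 4 between KO naive and WT naive, where 34.3% were. Htr2c gave 0.94 (0.46 to 1.44) for WT injury and 1.49 (1.06 to 1.96) for KO naive over WT naive, beside 0.57 and 1.25 for the neuronal markers. With doublets kept these ratios were 0.19 and 0.68.

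The other genes of these pathways were read from 7 lists. Of 8 other serotonin receptor genes, 7 had at least 30 UMIs over the KO pair in neurons, and 2 were past the fold between KO SNI and KO naive, Htr2b (0.80) and Htr5b (1.78). Of the genes for monoamine synthesis, uptake, storage and breakdown 1 of 8 was, the vesicular transporter gene Slc18a2 (1.10). The Gq arm had 1 of 11 past the fold, the calcium release channel gene Itpr3 (1.12), and the desensitisation list 1 of 10, Rgs4 (0.81). The Gi arm had 0 of 9 and the Gs arm 0 of 12. Over all genes tested in neurons, 17.6% were past the fold in this contrast. Between WT SNI and WT naive neurons 0 members of any of the 7 lists were past the fold, where 7.33% of all genes were.

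Between KO naive and WT naive neurons, 3 list members were past the fold, Htr2b, Slc18a2 and Adrb3, where 22.4% of all genes were. Adrb3 gave -0.65 (-1.61 to 0.34) on 22 UMIs in KO naive and 18 in WT naive. Htr2b, a further Gq-coupled serotonin receptor, stood at 21.6, 27.3, 12.4 and 38.4 CPM in all neurons, a log2 ratio of -1.63 (-1.79 to -1.47) for KO naive over WT naive. Slc18a2 stood at 15.5, 15.9, 7.20 and 19.8 CPM, a log2 ratio of -1.46 (-1.68 to -1.24). The KO naive library was the lowest of the 4 for Htr2b and Slc18a2 in all neurons, the opposite of Htr2c in glia and excitatory-like neurons. Neurons were not alone in this. Where Htr2b or Slc18a2 was past the fold in a glial class in this contrast, KO naive was lower there too. Htr2b gave -2.13 in astrocyte-like and -1.45 in oligodendrocyte-like nuclei. Slc18a2 gave -1.28 in oligodendrocyte-like and -1.18 in microglia-like nuclei. The source of these differences was not tested. Between KO SNI and WT SNI neurons, Htr5b, Adrb3 and Itpr3 were past the fold, where 6.87% of all genes were. Itpr3 gave 0.89 (0.34 to 1.45). The intervals of Htr5b, at 1.06 (-0.02 to 2.24) on 24 and 11 UMIs, and of Adrb3, at -0.87 (-2.02 to 0.22) on 12 and 21 UMIs in KO SNI and WT SNI, include 0.

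Several genes that make or take up the transmitters had few UMIs in these nuclei. Tph2, the serotonin-synthesising enzyme of neurons, had 48 UMIs in all kept nuclei, the serotonin transporter Slc6a4 had 10, the noradrenaline transporter Slc6a2 had 14, and Dbh, which makes noradrenaline, had 0. Others of the list were counted more, with 1247 UMIs for Ddc, which makes serotonin and dopamine, 864 for the low-affinity transporter gene Slc29a4 and 225 for Th. Ddc stood between 14.5 and 45.2 CPM in oligodendrocyte-like nuclei, against 2.76 to 3.46 CPM in all neurons. The breakdown enzyme Maob averaged 47.5, 41.8, 29.8 and 41.1 CPM over astrocyte-like nuclei, against 3.40, 2.64, 3.14 and 2.16 CPM in all neurons. Adrb1, a Gs-coupled adrenergic receptor, averaged 16.9, 15.6, 17.0 and 21.1 CPM over astrocyte-like nuclei, against 4.58, 4.12, 3.86 and 4.04 CPM in all neurons. Maob and Adrb1 thus shared with Adra1a and Adra1b a higher level in astrocyte-like nuclei than in neurons in each library.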

How the data were processed

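The deposited values are raw counts, UMIs of each gene in each nucleus, and the file headers name Cell Ranger 7.0.0 as the software. GRCm38, Seurat 4.3.0 and R 4.3.0 appear in the submitters' processing notes with no role stated. How reads were aligned, whether introns were counted and which annotation was used is not given in the sources used here. If intronic reads were counted, long genes gain more UMIs from unspliced RNA. Coordinates are from GENCODE vM21 on GRCm38, matched by gene identifier.

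Nuclei with at least 300 genes and at most 5% mitochondrial UMIs passed the filter, and 552 of 112746 barcodes did not. Doublets were scored per library with scrublet (scanpy 1.11.5, Python 3.11.15) at an expected share of 10% and 2 simulated doublets per nucleus, which marked 5.70%, 9.78%, 5.99% and 13.1% of KO SNI, WT SNI, KO naive and WT naive nuclei. In WT SNI the automatic threshold marked 0.122%, and the 90th percentile of the scores was used in its place. In all, 9070 nuclei were left out. The 4 libraries were clustered together without batch correction: 3000 variable genes without the receptor and pathway genes, 40 principal components, 20 neighbours, shared-neighbour weights of at least 1 in 15, Leiden resolution 1 (igraph 0.11.9). A cluster took a class name where at least 2 of 3 of its fixed markers, and at least 3, were raised 2-fold. It stayed unnamed where its doublet score was 0.2 or more, haemoglobin led it, or a second class was raised as well. Neuron clusters were split by their excitatory and inhibitory markers, with a minimum of 0.3 log2 units and 3 detected markers that was added after the clusters were seen.

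UMIs were summed per class and library. Levels have exact Poisson intervals, ratios exact conditional binomial intervals and shares Clopper-Pearson intervals, all at 95% and for counting error only. In a ratio, a sum of 0 UMIs took the value 3 as its floor. For shares, nuclei were thinned to 1000 UMIs and shallower ones left out. The code for ratios was tested on simulated data. With 1 library per group there was no test. The text names all 10 members, and of each pathway list the members with the most UMIs and those past 1.5-fold. For each member with at least 200 UMIs it names the genes with the highest r across clusters. The members, lists and rules were chosen with earlier results of these data known. Alternatives changed the filter, doublets, resolution, joint clustering, scaling, thinning and UMI minimum. Leaving out the KO naive library and leaving out neurons of unresolved transmitter were added after seeing the data. The KO injury result of the list of other adrenergic receptors is not reported here.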

Additional observations from a re-analysis of the deposited data

Results flagged for a closer look

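In 3 cases the injury ratio was past 1.5-fold in both KO and WT mice and in opposite directions. The difference between the 2 genotypes was not tested, since each group is 1 library. For Htr2c the KO injury log2 ratio minus the WT one was -1.75 in astrocyte-like nuclei, from -1.11 in KO and 0.64 in WT. For Htr2c it was -2.05 in oligodendrocyte-like nuclei, from -1.25 in KO and 0.80 in WT. For Htr7 it was -1.92 in oligodendrocyte-like nuclei, from -1.18 in KO and 0.74 in WT. The summed neuronal markers had log2 ratios of -0.90 in KO and 0.61 in WT in astrocyte-like nuclei, and of -0.98 in KO and 0.59 in WT in oligodendrocyte-like nuclei. Their part in the result was not tested.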

How the results depend on the processing

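Each group is 1 library, so no value here measures the variation between animals, and Htr1a, Htr3a and Adra2c are limited by depth. No paired analysis was possible because each group has 1 library. The count of members past the fold between KO SNI and KO naive neurons was 0 under each alternative run. The count between WT SNI and WT naive neurons was 1 as reported, 0 with each library clustered on its own, 3 with nuclei thinned to 1000 UMIs (Htr1a, Htr3a and Adra2c), and 2 without neurons of unresolved transmitter (Htr1a and Htr3a). Between KO SNI and WT SNI it was 0 as reported and 1 without those neurons (Htr1a). Between KO naive and WT naive it was 0 as reported, 1 at resolution 2 (Htr3a), 2 with each library clustered on its own (Htr3a and Adra2a), and 1 after thinning (Htr3a). The share of WT naive unresolved neurons with an Htr2c UMI was 48.0% thinned to 1000 UMIs and 30.8% thinned to 500, as fewer UMIs were drawn. The 3 genes with an astrocyte level above that of neurons in each library became 2 (Adra1a and Adra1b) with at least 500 genes and 1000 UMIs a nucleus and with thinning, and 4 (with Adra2c) at resolution 0.5 and with each library clustered on its own. The count was 3 without the KO naive library. The 10 genes with a neuron cluster 2-fold above the median did not change in number. For neither this count nor the astrocyte count is the share of all genes given here. The Gpr37l1 log2 ratio between KO SNI and WT SNI astrocyte-like nuclei was -6.26, with a range of -6.84 to -5.06. Of 682 values for a gene, class and contrast under an alternative, 600 moved within their interval, 73 moved further, and 9 that were past the fold as reported changed sign. Ratios within the fold also changed sign, among them Htr2c over all neurons with each library clustered on its own (0.28 for KO injury, -0.10 for KO naive over WT naive), where KO naive had 0 neurons of unresolved transmitter. The 9 were Htr3a in oligodendrocyte-like nuclei after thinning (0.23 for KO injury, -0.17 for KO naive over WT naive), and Htr7 in microglia-like nuclei for WT injury (-1.47 with doublets kept, -0.76 at resolution 2, -0.03 with each library clustered on its own) and for KO naive over WT naive (-0.45 with doublets kept). The others were Adra1b in microglia-like nuclei for KO SNI over WT SNI (-0.45 with doublets kept, -0.51 at resolution 2, -0.31 with each library clustered on its own). The cause was not tested. Scaling by the median ratio shifted the neuron log2 ratios by 0.035 (KO injury) at most.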
